A study of Drosophila melanogaster with 9 samples.

Results

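The trypsins of the Drosophila melanogaster larval midgut were followed across a normal diet, a diet with the wheat lectin WGA (wheat germ agglutinin) and starvation. The 10 genes considered were alphaTry, betaTry, gammaTry, deltaTry, epsilonTry, zetaTry, etaTry, thetaTry, iotaTry and Try29F, chosen by name. A probe set of the array was assigned to a gene through the platform annotation, which gave 1 probe set each for 8 of the 10 genes, among 13966 probe sets in all. gammaTry and deltaTry were matched to no probe set and were not analysed here. None of the 8 probe sets was annotated to several genes. Probe sequences were not analysed here, so binding of transcripts from near-identical copies to these probe sets was not tested.

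Trypsins are serine proteases that cut protein chains after lysine and arginine. In the insect midgut they are secreted by enterocytes as inactive precursors and, once activated in the lumen, begin protein digestion together with chymotrypsin-like enzymes. Carboxypeptidases and aminopeptidases then release amino acids and short peptides from the fragments.

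Of the 10 genes, 9 lie in a gene cluster on chromosome arm 2R and Try29F lies on arm 2L in the RefSeq table of assembly release 6. The cluster holds 13 trypsin genes and 1 other protein-coding gene. In order they are lambdaTry, kappaTry, zetaTry, etaTry, thetaTry, alphaTry, epsilonTry, betaTry, gammaTry, CG30031, CG30025, deltaTry and iotaTry, with CG13202 between deltaTry and iotaTry. Like gammaTry and deltaTry, CG30031 and CG30025 were matched to no probe set and were not analysed here.

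Midguts of strain W1118 larvae in their last instar were dissected, and each of 9 Affymetrix arrays measured RNA from 1 pool of 50 midguts. The 3 control arrays came from larvae labelled as 120 h old in a normal state, with 12 h in their titles. The 3 WGA arrays came from larvae of 108 h (108 to 110 h for replicate 1) that then fed on 1% WGA for 12 h, and the 3 starvation arrays from larvae of 108 h that then had no food for 12 h. All groups share the strain and the rearing, and an age difference between the control group and the treated groups cannot be told apart from the treatments if the labelled ages were those at dissection.

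The deposited signal intensities, on a linear scale, summed to between 909028 and 1457246 per array. The filter on dim signals left 9675 probe sets to test, among them all 8 trypsin probe sets. Midgut enterocyte markers were measured, with 7 of 7 listed genes that had a probe set above the filter, while 5 of 6 measured salivary gland markers (Sgs1, Sgs3, Sgs4, Sgs5 and Sgs7) lay below it. The ratio of 3 prime to 5 prime signal, which rises as RNA breaks down, was measured on 3 control transcripts. It was 3.60 to 5.71 in control, 2.75 to 3.52 with WGA and 2.83 to 3.56 in starvation for eIF-4a. For GAPDH it was 1.97 to 2.92, 2.22 to 2.41 and 2.92 to 3.35, and for actin 1.44 to 2.36, 1.17 to 1.49 and 1.44 to 1.51, so the order of the groups differed between the transcripts. In pooled tissue, fewer cells of a type and less RNA per cell cannot be told apart. Signals below are deposited values, and log2 changes come from a limma fit to quantile-normalised log2 signals, with their standard error (SE) and n = 3 arrays per group. Signals of different probe sets are not compared with each other, because probes differ in how well they bind.

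Trypsin transcripts did not respond to the treatments as 1 group. After WGA, thetaTry fell to near the filter level for dim signals, zetaTry fell 4.77-fold and iotaTry and epsilonTry fell less. The calls of iotaTry and epsilonTry depended on the scaling, and a small rise of etaTry was lost in 14 of 21 alternatives. The changes of alphaTry, betaTry and Try29F did not pass the test. After starvation, alphaTry rose and zetaTry fell slightly, the latter a call lost in 4 of 21 alternatives. The question behind the comparison with starvation is which effects of the lectin diet are not shared by larvae without food. In that comparison thetaTry, alphaTry, zetaTry and iotaTry were lower after WGA. Against control the log2 change of alphaTry was 0.30 after WGA (limma, adjusted p = 0.315) and 2.16 after starvation. Its difference therefore holds the rise in starved larvae and is not a fall after WGA. For zetaTry the changes against control were -2.25 after WGA and -0.56 after starvation.

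**Figure D1:**
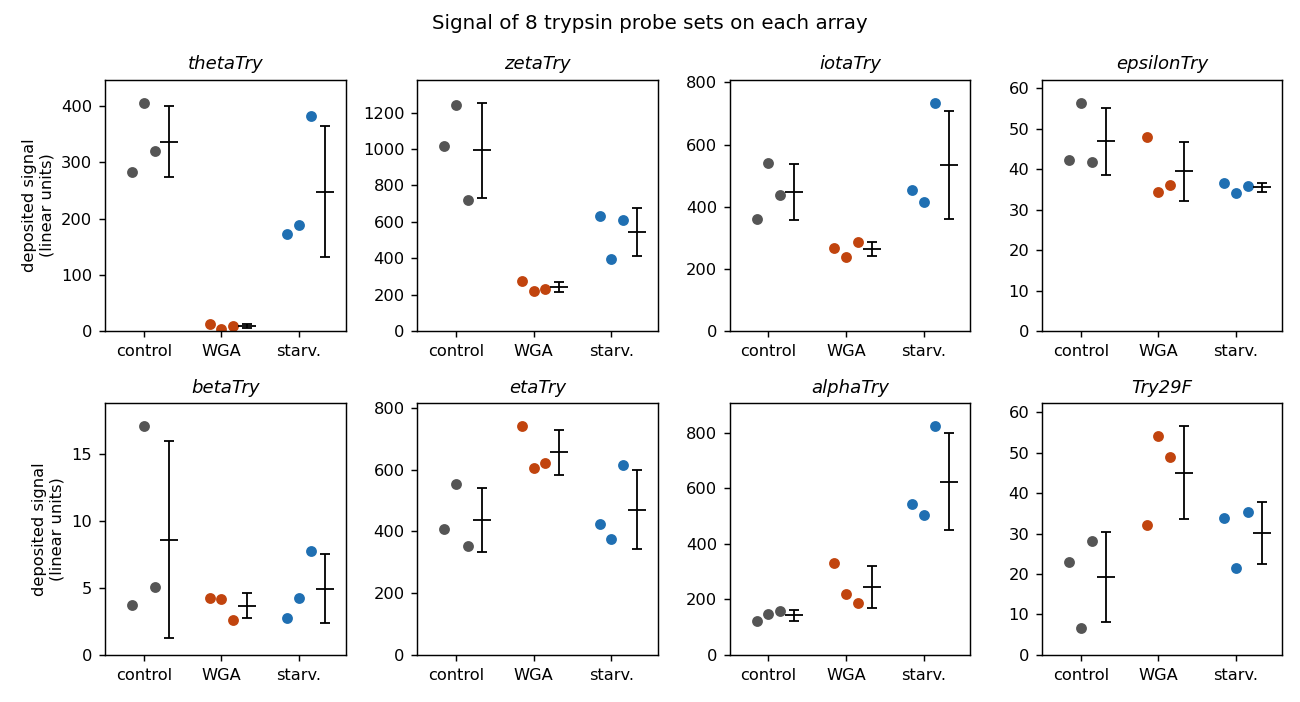
Deposited signal (linear units, each panel with its own axis from 0) of the 8 trypsin probe sets on the 3 control, 3 WGA and 3 starvation arrays. Points are arrays, and the bar beside them is the mean ± SD. The thetaTry signals after WGA were 4.72 to 12.9, against 284 to 406 in control, and the alphaTry signals after starvation were 504 to 824, against 121 to 158 in control.

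thetaTry had the largest change of the trypsins. Its signal was 284, 406 and 321 on control replicates 1 to 3. It was 12.9, 4.72 and 9.60 after WGA, and 173, 190 and 383 after starvation. All WGA arrays lay far below all others, and the starvation arrays overlapped those of control. In the fit the mean log2 signal was 8.42 ± 0.19 in control (SD, n = 3), 3.13 ± 0.46 after WGA and 8.11 ± 0.46 after starvation. The log2 change was -5.29 ± 0.26 for WGA against control (limma, adjusted p = 1.6e-08), a level 39.1-fold lower, and only 4 of 9675 tested probe sets had a lower value. After WGA 2 of 3 arrays lay above the filter level of 5.18, and the size of this fall moved with the offset added before the logarithm. The change was -5.59 with an offset of 0.1 and -4.82 with an offset of 5.11. Against starvation the WGA arrays were lower by a log2 change of -4.98 ± 0.26 (limma, adjusted p = 4.62e-08). The change of starvation against control was -0.31 ± 0.26, with an interval of -0.88 to 0.26 and adjusted p = 0.493 in limma.

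zetaTry had the next largest fall after WGA. Its signal was 1015, 1242 and 720 in control, 275, 220 and 230 after WGA, and 630, 395 and 609 after starvation. The 3 groups did not overlap, with starvation between the other groups. The log2 change was -2.25 ± 0.14 for WGA against control (limma, adjusted p = 1.31e-07), 4.77-fold lower. It was -0.56 ± 0.14 for starvation against control, 1.48-fold lower (limma, adjusted p = 0.0157). This small fall after starvation missed the threshold at adjusted p = 0.272 with spike-in scaling, 0.112 for a variance prior without a trend, 0.0511 without control replicate 1 and 0.0877 without starvation replicate 2. WGA against starvation gave -1.69 ± 0.14 (limma, adjusted p = 3.39e-06).

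iotaTry, the last gene of the cluster, fell after WGA and was also lower after WGA than after starvation. Its signal was 360, 541 and 439 in control, 267, 240 and 287 after WGA, and 455, 415 and 735 after starvation. The WGA arrays lay below all others, and control and starvation overlapped. The log2 change was -1.01 ± 0.19 for WGA against control (limma, adjusted p = 0.00145), 2.01-fold lower, and the call was lost at adjusted p = 0.0857 with spike-in scaling. WGA against starvation gave -1.48 ± 0.19 (limma, adjusted p = 0.000122). The change of starvation against control was 0.47 ± 0.19, with adjusted p = 0.119 in limma, and it passed at adjusted p = 0.0137 with a replicate block.

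epsilonTry was measured at 42.3, 56.4 and 41.9 in control, 47.8, 34.4 and 36.1 after WGA, and 36.5, 34.1 and 35.7 after starvation. In these deposited signals control and WGA overlapped, while after quantile normalisation they did not, with log2 signals of 5.81 ± 0.06 and 5.01 ± 0.06 (SD, n = 3). The log2 change of WGA against control was -0.80 ± 0.20 (limma, adjusted p = 0.0108), and the call was lost in the deposited scaling (adjusted p = 0.593) and under spike-in scaling (adjusted p = 0.699). The change of starvation against control was -0.46 ± 0.20 (adjusted p = 0.153).

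etaTry lies between zetaTry and thetaTry in the cluster and did not fall with them. Its signal was 408, 552 and 353 in control, 741, 607 and 621 after WGA, and 423, 374 and 616 after starvation. The WGA arrays lay above the control arrays, and the starvation arrays overlapped the control arrays in these signals but lay above them after quantile normalisation. The log2 change of WGA against control was 0.39 ± 0.13 (limma, adjusted p = 0.0478), 1.31-fold higher, and this call was lost in 14 of 21 alternatives, with an adjusted p of up to 0.646. With starvation it was 0.36 ± 0.13 (adjusted p = 0.0871), and WGA against starvation gave 0.03 ± 0.13, with an interval of -0.25 to 0.32.

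The contrast between these neighbours can be read within each array, where the scaling of the arrays has no effect apart from the offset. Each signal was first set against the control mean of its own probe set. On the 3 WGA arrays the change of etaTry exceeded that of thetaTry by 5.30 to 6.20 on the log2 scale and that of zetaTry by 2.59 to 2.62. On the starvation arrays the same differences were 0.32 to 0.92 and 0.59 to 1.19. The control arrays spread from -0.23 to 0.15 for the first pair and from -0.14 to 0.14 for the other, so the treated arrays lay outside the control spread in both pairs.

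alphaTry rose after starvation. Its signal was 121, 147 and 158 in control, 330, 218 and 186 after WGA, and 543, 504 and 824 after starvation. All starvation arrays lay above all others. The log2 change of starvation against control was 2.16 ± 0.20 (limma, adjusted p = 9.47e-06), 4.48-fold higher, and 63 of 9675 tested probe sets had a higher value. WGA against starvation gave -1.86 ± 0.20 (limma, adjusted p = 2.66e-05), 3.63-fold lower. For WGA against control the deposited signals did not overlap, but the normalised ones did, and the log2 change was 0.30 ± 0.20 with adjusted p = 0.315. It was 0.81 with adjusted p = 0.0439 under spike-in scaling. On the starvation arrays the change of alphaTry exceeded that of etaTry in the same array by 1.96 to 2.02 on the log2 scale. The same difference was -0.13 to 0.43 on the WGA arrays and -0.30 to 0.44 on the control arrays.

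Try29F and betaTry gave dim signals with a wide spread. Try29F, the gene outside the cluster, was at 23.0, 6.68 and 28.2 in control, 32.1, 54.1 and 48.9 after WGA, and 33.7, 21.4 and 35.4 after starvation. Control replicate 2 was the lowest of the 9 arrays, and control and WGA overlapped after normalisation. The log2 change of Try29F was 0.73 ± 0.48 for WGA against control (interval -0.30 to 1.76, adjusted p = 0.319) and 0.63 ± 0.48 for starvation against control (interval -0.40 to 1.66, adjusted p = 0.441). The first was 1.31 with adjusted p = 0.0196 in the deposited scaling, 1.36 with adjusted p = 0.0288 under spike-in scaling and 0.03 without control replicate 2.

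betaTry was at 3.70, 17.1 and 5.06 in control, 4.27, 4.14 and 2.58 after WGA, and 2.76, 4.27 and 7.77 after starvation. Only control replicate 2 stood out, and after normalisation 2 control arrays, 1 starvation array and 0 WGA arrays were above the filter level. The log2 change was -1.06 ± 0.49 for WGA against control (adjusted p = 0.154) and -0.63 ± 0.49 for starvation against control (adjusted p = 0.455). The normalised WGA values (log2 2.01 to 2.48) lay below those of control (2.73 to 4.20), but no change of betaTry passed the threshold in the limma fit. This probe set was fitted in 15 of 21 alternatives. It passed only with array weights, where the WGA change was -1.39 with adjusted p = 0.0414.

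**Figure D2:**
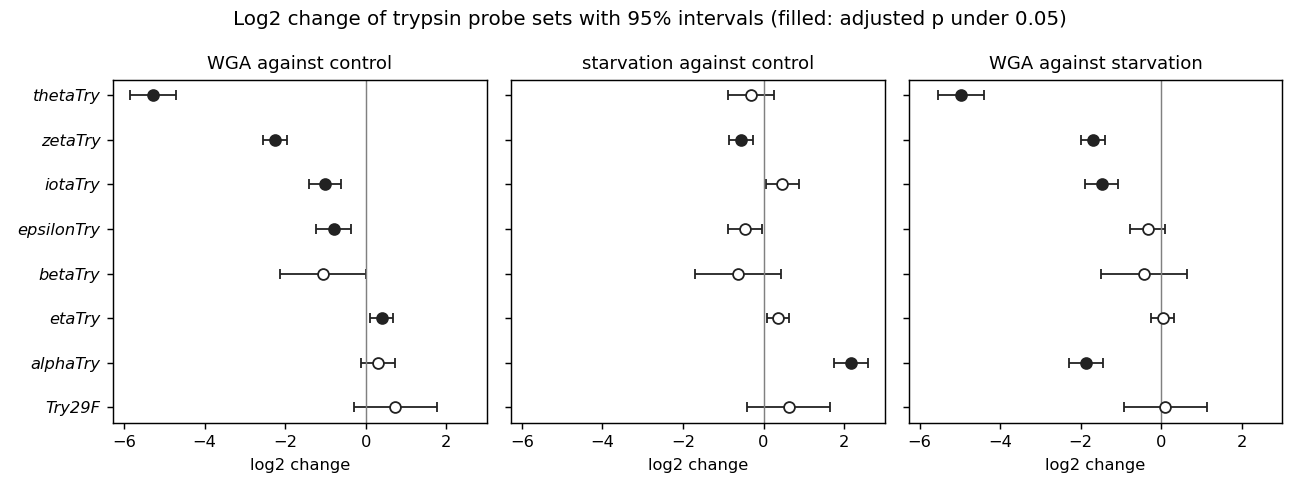
Log2 change (x axis) with 95% intervals for 8 trypsin probe sets (y axis) in the 3 comparisons, from the limma fit with 3 arrays per group. Filled points passed an adjusted p of 0.05. thetaTry at -5.29 stands apart in WGA against control, and alphaTry at 2.16 in starvation against control.

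For WGA against control, 4 of 8 trypsin probe sets fell and 1 rose, where 21.7% of all tested probe sets were called, 10.1% as falls and 11.6% as rises. The median log2 change was -0.90 for the 8 trypsins and 0.03 for all tested probe sets. With the deposited scaling, where 7 trypsin probe sets passed the filter, 3 fell and 1 rose and the trypsin median was -0.24, against 0.48 for all tested probe sets, and under spike-in scaling 2 fell and 2 rose with medians of -0.42 and 0.53. In 6 of the 8 the normalised values of the groups did not overlap, as in 38.3% of all tested probe sets. betaTry counts among these 6 and in the median, though it reached the test through 2 control arrays and 1 starvation array. Its WGA arrays all lay below the filter level, so the filter favoured its lower WGA values. For starvation against control, 1 of 8 rose and 1 fell, where 15.2% of all tested probe sets were called, 8.12% as rises and 7.09% as falls. Those medians were 0.025 for the trypsins and 0.01 for all tested probe sets, and the trypsin median turned to -0.14 with cyclic loess and -0.06 with median centring. In 4 of 8 the groups did not overlap, as in 29.4% of all tested probe sets. For WGA against starvation, 4 of 8 were lower, where 11.5% of all tested probe sets were called and 5.57% were lower, with medians of -0.95 and 0.01. In 5 of 8 the groups did not overlap, as in 30.0% of all tested probe sets. In limma 0 of 8 were higher, also at an unadjusted p under 0.05, where 5.94% of all tested probe sets were higher by adjusted p. The comparisons against control share the control arrays, so their values are given side by side and not correlated.

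Other measures differed between the same groups, and their part in the trypsin changes was not tested. Among all tested probe sets, 10.1% fell and 11.6% rose after WGA, and 7.09% fell and 8.12% rose after starvation. Of 7 enterocyte markers 4 rose after WGA, led by the transcription factor gene nub at 1.72 ± 0.20, and 1 fell, the vacuolar ATPase gene Vha100-4 at -1.25 ± 0.18. The summed normalised signal of the 7 was 1234 to 1398 in control, 2521 to 2952 after WGA and 1621 to 1705 after starvation. Of 8 enteroendocrine markers 2 fell and 0 rose after WGA (0 rose at an unadjusted p under 0.05 in limma), with sums of 191 to 244, 122 to 139 and 163 to 177. After starvation 3 of the enterocyte markers rose, and 0 with the deposited scaling, while in limma 0 fell, also at an unadjusted p under 0.05. The 2 falls of enteroendocrine markers after WGA were 0 with the deposited scaling and under spike-in scaling. Visceral muscle sums over 7 genes were 2435 to 2924, 2617 to 4438 and 1710 to 2312. After WGA most of these genes had their highest deposited signal on replicate 1, so the upper end rests on 1 pool. Act87E was the 1 gene called up after WGA and the 1 called down after starvation. Whether transcripts of other actin genes bind to the Act87E probe set was not tested. The first Act87E call was lost with median centring (adjusted p = 0.123), and the other in 6 of 21 alternatives, among them spike-in scaling (adjusted p = 0.357). Fat body sums over 4 genes were 241 to 323, 202 to 395 and 211 to 1008, with 0 calls after WGA (0 at an unadjusted p under 0.05 in limma) and 1 rise after starvation, of the storage protein gene Lsp2 at 1.88 ± 0.52, a call lost in 5 of 21 alternatives with an adjusted p of up to 0.12. Of 5 tested ecdysone response genes, which change with larval stage, limma called 0 after WGA and 0 after starvation, with 0 and 1 at an unadjusted p under 0.05, and 6 more lay below the filter. Their sums were 27 to 42, 31 to 38 and 25 to 79. Haemocyte sums over 4 genes were 29 to 47, 24 to 53 and 30 to 33, with NimC1 and eater below the filter. The 2 Malpighian tubule markers summed to 50 to 56, 29 to 32 and 36 to 78, and the 1 tested salivary gland marker had normalised signals of 26 to 37, 4 to 25 and 13 to 24. The deposited signals of this marker were 20.9 to 28.5, 4.33 to 31.15 and 12.6 to 19.5, so there control and WGA overlapped. In these last 3 lists limma called 0 genes after either treatment, and after WGA 0 haemocyte, 2 tubule and 1 salivary gland markers fell at an unadjusted p under 0.05. The share of all tested probe sets at an unadjusted p under 0.05 was not counted. The unadjusted counts therefore have no rate to be set against.

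Neighbours in the cluster differed in their changes. kappaTry and lambdaTry, at the other end of the cluster from iotaTry, belong to the cluster without being among the 10 genes. kappaTry was at 966, 861 and 544 in control, 594, 466 and 547 after WGA, and 540, 380 and 412 after starvation, with a log2 change of -0.72 ± 0.18 after WGA (limma, adjusted p = 0.0114) and -0.55 ± 0.18 after starvation (adjusted p = 0.0583). The kappaTry call after WGA was lost in the deposited scaling (adjusted p = 0.156), under spike-in scaling (0.149) and for a prior without a trend (0.0725). After starvation kappaTry passed in 5 of 21 alternatives, among them cyclic loess (adjusted p = 0.0266), median centring (0.00864) and a replicate block (0.0323). lambdaTry was dim, at 4.68 to 11.8 in control, and its log2 changes were 0.29 ± 0.43 and -0.04 ± 0.43. Along the cluster the WGA change went from 0.29 at lambdaTry to -0.72, -2.25, 0.39, -5.29, 0.30, -0.80 and -1.06 at betaTry, and -1.01 at iotaTry.

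**Figure D3:**
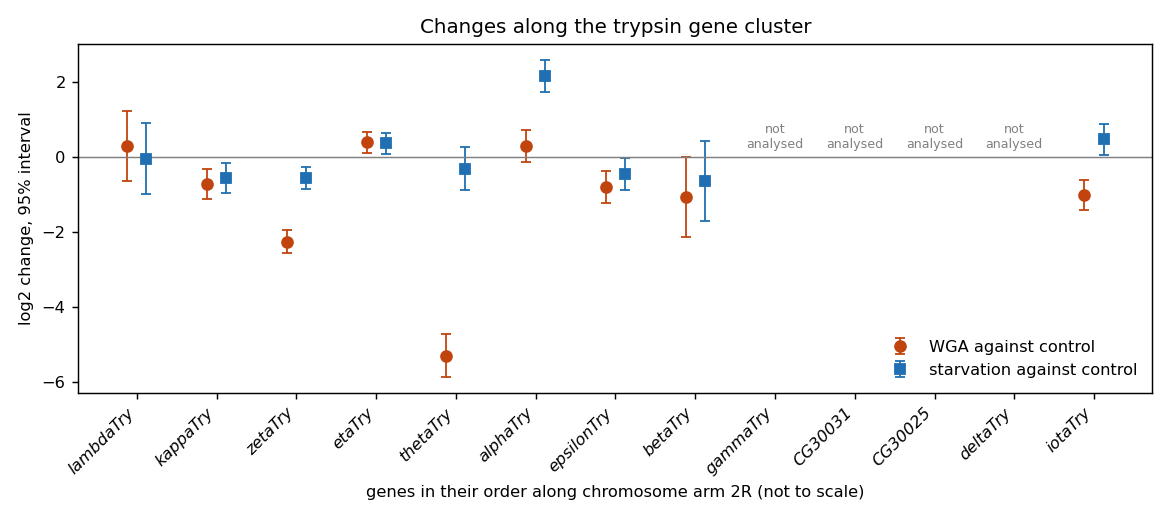
Log2 change with 95% intervals (y axis) of 9 trypsin genes in their order along chromosome arm 2R (x axis, not to scale), for WGA against control (circles) and starvation against control (squares). The 4 genes matched to no probe set are marked as not analysed. thetaTry at -5.29 after WGA lies beside alphaTry, which was at 2.16 after starvation.

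Other genes of protein digestion were set beside the trypsins by lists. Among all tested probe sets, 10.1% fell and 11.6% rose after WGA, and 7.09% fell and 8.12% rose after starvation. Of 14 Jonah proteases, chymotrypsin-like enzymes of the midgut, 10 fell and 0 rose after WGA, with 0 rises at an unadjusted p under 0.05 in limma, and the median log2 change was -1.09. After starvation 3 fell and 2 rose, with a median of -0.06. Of 33 other secreted serine proteases, 13 fell and 2 rose after WGA and 7 fell and 4 rose after starvation, with medians of -0.47 and -0.03. After WGA 7 fell and 3 rose in the deposited scaling and likewise under spike-in scaling, with medians of -0.25 and -0.17. With spike-in scaling 0 of these 33 fell after starvation, and the starvation medians of the Jonah and other serine proteases turned to 0.24 and 0.30, against 0.53 for all tested probe sets. The largest change of that list was CG12951, at 4.99 ± 0.28 after starvation and 1.58 ± 0.28 after WGA. Like alphaTry, it was lower after WGA than after starvation, by a log2 change of -3.41 ± 0.28 (limma, adjusted p = 3.32e-06). So was Phae2 of the same list, at -2.55 ± 0.17, which rose by 1.41 ± 0.17 after starvation. In WGA against starvation 8 of 14 Jonah and 8 of 33 other serine proteases were lower and 0 were higher, with medians of -0.885 and -0.414. With the deposited scaling 7 and 3 were lower and 0 and 1 higher. Among all tested probe sets 5.57% were lower and 5.94% higher.

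Among enzymes of the later steps, falls were counted after both treatments. After WGA 10.1% of all tested probe sets fell and 11.6% rose, and after starvation 7.09% fell and 8.12% rose. Of 12 secreted metallocarboxypeptidases, which trim amino acids from the carboxyl end, 7 fell after WGA and 6 after starvation, with medians of -0.95 and -0.47. In limma 0 rose in either comparison, also at an unadjusted p under 0.05. CG18585 was at -3.97 ± 0.20 and -3.03 ± 0.20, and CG7025 at -3.66 ± 0.20 and -2.99 ± 0.20. Of 11 aminopeptidases and dipeptidases, 5 fell and 0 rose after WGA (0 at an unadjusted p under 0.05 in limma), and 4 fell and 1 rose after starvation, with CG31233 at -1.50 ± 0.17 and -2.20 ± 0.17. These last falls were 2 and 1 with the deposited scaling and 2 and 1 under spike-in scaling. With spike-in scaling the starvation median of this list turned from -0.35 to 0.11, against 0.53 for all tested probe sets. Nothing here tests whether a list differs from the trypsins.

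**Figure D4:**
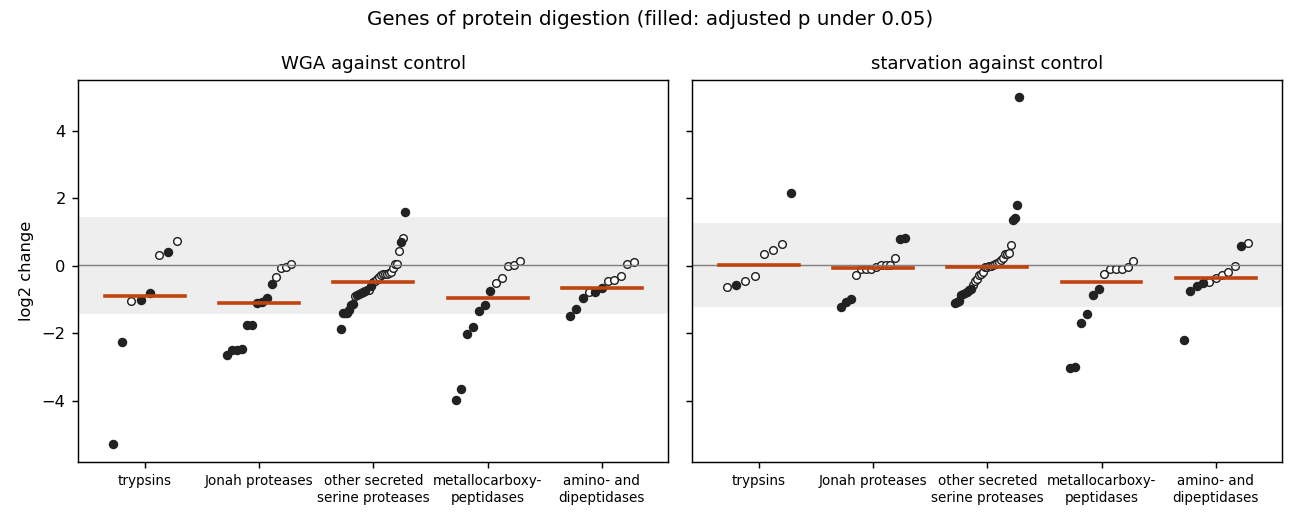
Log2 change (y axis) of genes in 5 groups of digestive proteases and peptidases after WGA (left) and after starvation (right), against control. Each point is 1 gene, filled where adjusted p was under 0.05, the bar is the median, and the grey band holds the middle of all tested probe sets from the 5th to the 95th percentile. After WGA the medians were -0.90, -1.09, -0.47, -0.95 and -0.66 from left to right.

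The genes whose normalised log2 signal was most like that of each trypsin over the 9 arrays differed between trypsins. Pearson r over n = 9 arrays is given as a description, since the arrays fall into 3 groups and r mostly follows the group means. thetaTry was most like CG6277, of the lipase family (r = 0.989), which was at 753 to 1416 in control, 20.6 to 32.1 after WGA and 698 to 1259 after starvation. Next was the lysozyme gene LysS (r = 0.989), at 4343 to 5676, 108 to 113 and 3771 to 5404. zetaTry was most like Gclm, a subunit of the enzyme that makes the glutathione precursor (r = 0.988), and the cytochrome P450 gene Cyp4d1 (r = 0.985). iotaTry was most like CG7953 (r = 0.986) and CG11162 (r = 0.980). etaTry was most like the kinase gene Pak3 (r = 0.985) and CG17549 (r = 0.973). For alphaTry the nearest were CHKov2 (r = 0.977) and CG33229 (r = 0.966). CHKov2 was listed at 0.9 to 1.7 in control and 0.9 to 2.1 after WGA, below the filter level, and at 5.9 to 12.1 after starvation. It was tested only through the starvation arrays, where alphaTry is also high, so the filter favoured this match. epsilonTry was most like CG18294 (r = 0.967) and blw, a subunit of the mitochondrial ATP synthase (r = 0.964). Among the trypsins themselves the highest values were r = 0.960 for zetaTry with thetaTry and r = 0.895 for thetaTry with iotaTry, and the lowest was r = -0.905 for epsilonTry with etaTry. These r values hold for quantile-normalised signals and were not computed for other scalings. The call of epsilonTry after WGA was lost in the deposited scaling and under spike-in scaling.

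**Figure D5:**
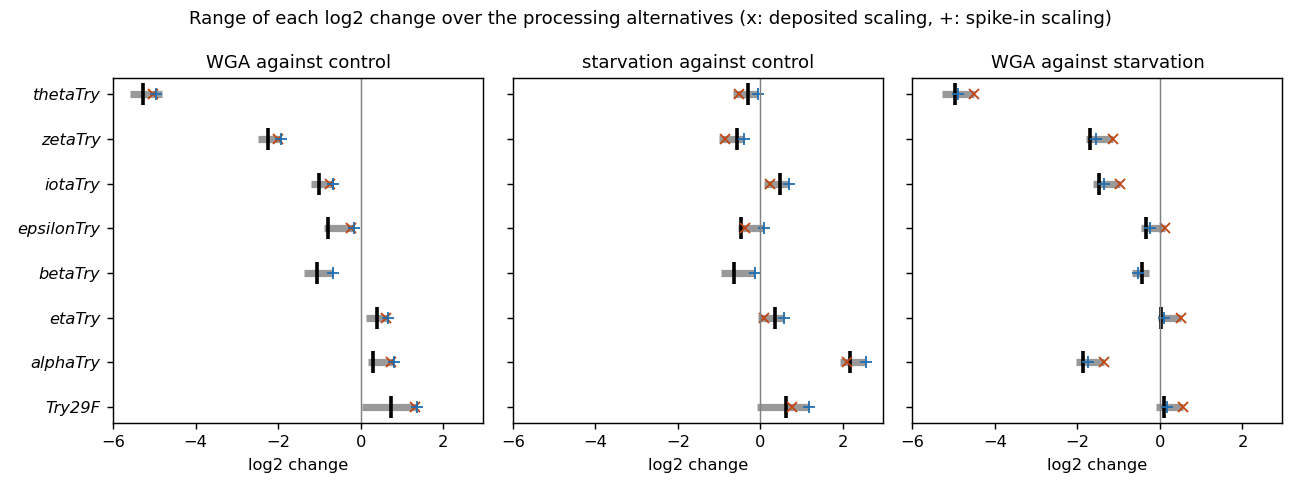
Range of the log2 change (x axis, grey bars) of each trypsin probe set (y axis) over the processing alternatives in the 3 comparisons, with the reported value as a black tick, the deposited scaling as a cross and spike-in scaling as a plus. For thetaTry after WGA the range was -5.59 to -4.82, and for alphaTry after starvation 1.94 to 2.56.

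Of 11 trypsin changes past the threshold over the 3 comparisons, 7 passed it in each alternative run. These were thetaTry and zetaTry for WGA against control, alphaTry for starvation against control, and thetaTry, alphaTry, zetaTry and iotaTry for WGA against starvation. The other 4 were those of epsilonTry, etaTry and iotaTry after WGA and of zetaTry after starvation.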

How the data were processed

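The deposited values are linear signal intensities, 1 for each array and probe set. Per the submitters' processing notes they were made with GCOS, the Affymetrix software. Its version, algorithm and scaling are not given in the sources used. The highest and lowest array means, trimmed by 2% at each end, differed 1.90-fold. Each of the 9 columns carries the name of its sample, and 0 were identical to another. The labels call the replicates biological, and p-values measure the spread between pools. The number of arrays limits the precision.

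The 44 control probe sets were left out. An offset of 1.72, the 20th percentile of all signals, was used for log2, and the log2 values were quantile normalised, which removes any difference in total signal between groups. Probe sets were tested where at least 3 of 9 arrays exceeded the 40th percentile (log2 2.79, signal 5.18). By the platform annotation 12443 probe sets had 1 gene, 327 had several and 1196 had none. The RefSeq table held the gene ID of 12394 of the 12443. A model of the 3 group means over the 9 arrays was fitted in R 4.3.3 with limma 3.58.1 (lmFit, eBayes with a trend), with p-values adjusted by Benjamini-Hochberg over 9675 probe sets and a threshold of 0.05. Intervals are at 95%. The fit was tested on simulated data.

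The members and gene lists were chosen with earlier results of these data known. Each trypsin with a probe set is named. From other lists up to 3 genes per comparison with the largest changes past the threshold and no overlap between groups may be named, and per trypsin the 2 most alike probe sets by Pearson r. For a listed gene with several probe sets the brightest tested one was used. Serine proteases that turned out to be Jonah genes under an older name were counted with those only. Alternatives covered scaling, offset, filter, variance prior, array weights, the samples in the fit, a replicate block and each array left out.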

Additional observations from a re-analysis of the deposited data

How the results depend on the processing

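Of 486 refits of the 24 trypsin changes, 453 kept their direction and side of the threshold, 21 lost the threshold, 5 gained it and 7 turned their sign, none of the last past the threshold in either setting. The sign changes were epsilonTry in starvation against control (0.077 with spike-in scaling) and in WGA against starvation (0.133 with the deposited scaling), etaTry in starvation against control (-0.057 with median centring) and in WGA against starvation (-0.05 without starvation replicate 1, up to 0.138 with another array left out), and Try29F in starvation against control (-0.07 without control replicate 2, up to 1.041 with another array left out) and in WGA against starvation (-0.107 without WGA replicate 2 and -0.017 without starvation replicate 2, up to 0.406 with another array left out). The cause was not tested. In the order WGA against control, starvation against control, then WGA against starvation, trypsin calls numbered 5, 2 and 4. The 2 became 1 with spike-in scaling and for a prior without a trend. With an array left out the trypsin calls were 4 to 5, 1 to 2 (1 without control replicate 1 or starvation replicate 2) and 4. Over all probe sets, 2100, 1472 and 1114 were called, with 1504 to 2176, 1039 to 1504 and 742 to 1191 when an array was left out (742 without WGA replicate 2). The 1114 became 652 with spike-in scaling and 740 for a prior without a trend. Against the shift of all tested probe sets (medians 0.03, 0.01 and 0.01), the shift was 0.48, 0.12 and 0.35 in the deposited scaling, and scaling on the spike-ins gave 0.53, 0.53 and -0.01. The share of rises among calls, 53.6%, 53.4% and 51.6%, became 82.2%, 53.7% and 84.9% in the deposited scaling, 84.2%, 86.1% and 58.4% under spike-in scaling, and 52.8%, 41.5% and 62.6% with median centring. Residual correlations were -0.038 to 0.096 for same-numbered arrays of different groups and -0.13 to 0.059 for different numbers. Among the 9 arrays, 6 correlated best with their own number. These small values do not settle whether replicate numbers pair the arrays, and the reported fit has no block. With a replicate block 2256, 1705 and 1264 probe sets were called. Of the 8 member probe sets only iotaTry in starvation against control changed sides (log2 change 0.47, limma, adjusted p = 0.0137). The cluster gene kappaTry, not a member, also passed in that comparison (log2 change -0.55, limma, adjusted p = 0.0323).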

Other observations

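Among genes listed for signalling to digestive enzymes, sug, a transcription factor known to be induced by dietary sugar, was at 87.3, 142 and 166 in control, 21.4, 27.6 and 13.0 after WGA, and 1.08, 1.45 and 2.37 after starvation. The 3 groups did not overlap. Its log2 change was -3.00 ± 0.33 after WGA and -5.42 ± 0.33 after starvation (limma, adjusted p = 2.08e-05 and 3.32e-07), and as the starvation signals were under 5.18, the filter level, the size of the sug difference between starvation and either other group depends on the offset. Of the 9 genes of that list, 2 fell and 1 rose after WGA, and 1 fell and 1 rose after starvation. Among all tested probe sets 21.7% and 15.2% were called in these comparisons. The Activin receptor gene put rose in both, at 0.96 ± 0.31 and 1.06 ± 0.31. Those calls of put were lost in 7 and 6 of 21 alternatives, and the 2 falls after WGA became 1 in the deposited scaling, under spike-in scaling and with median centring. Of 2 tested GATA factor genes, GATAe, which is needed for midgut gene expression, was at 0.59 ± 0.21 after WGA (adjusted p = 0.0672) and 0.90 ± 0.21 after starvation (adjusted p = 0.0119). In the deposited scaling GATAe passed after WGA (1.17, adjusted p = 0.0126) and not after starvation (0.96, adjusted p = 0.0752), and it also passed after WGA under spike-in scaling, with median centring and with the stricter filter.

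The single high betaTry signal, 17.1 on control replicate 2, fell on an array where the genes most like betaTry were also high. LysP was at 24.5 there, against 1.2 to 12.0 on the other 8 arrays, and CG42346 was at 22.7, against 2.4 to 8.3. These genes were chosen by their likeness over the same arrays, so the match is a description.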
